A study of Tursiops truncatus with 76 samples.

Results

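Whole blood transcriptomes of wild common bottlenose dolphins (Tursiops truncatus) from Barataria Bay, LA (BAR) were compared by the hepatobiliary finding of the health assessment made at the same capture. Of 76 transcriptomes in the series, 60 came from BAR, and these comprised 9 samples from 9 animals with the finding (Yes) and 51 samples from 47 animals without it (No). The finding was matched to each transcriptome by field ID and collection date. BAR lies in the area of the Deepwater Horizon oil spill, and both groups were wild animals of both sexes from that area. Exposure to oil need not be shared, since the paper lists animals born before and after the spill in both groups. Both groups also held pregnant and non-pregnant females. The paper reports genes that differ by birth cohort and by pregnancy. Birth cohort, body length and pregnancy were not used here. The Yes samples were 6 of females and 3 of males, with 2 from June 2013, 1 from June 2014, 4 from June 2017, 1 from September 2017 and 1 from July 2018. The No samples were 34 of females and 17 of males, with 10, 11, 8, 11 and 11 from the same 5 periods.

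The 2 groups also differed in other health findings. An inflammation finding was recorded for 4 of the 9 Yes samples and 8 of the 51 No samples. Anemia was recorded for 2 Yes and 4 No samples, and a finding of the iron panel for 2 Yes and 4 No samples. Samples free of these 3 findings numbered 3 in Yes and 36 in No. One male was sampled with the finding in June 2013 and without it in June 2014. The finding is a yes or no call from a panel of serum and clinical measures, and neither the measured serum values nor which of them led to the call was used here.

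Hepatobiliary disease is detected clinically when enzymes of injured hepatocytes or bile duct cells, or bilirubin that the liver has not cleared, appear in serum. Bilirubin is made from the heme of aged red cells, which heme oxygenase opens to biliverdin and biliverdin reductase reduces to bilirubin. The liver then conjugates bilirubin and exports it into bile. Circulating blood holds red cells, platelets and white cells but not hepatocytes. A blood transcript of a liver enzyme is therefore that of the blood cells and not the serum activity of the enzyme. Of 18 markers of liver cells, such as albumin and apolipoprotein B, 0 could be assigned to a locus, so the absence of liver RNA from these samples was not tested.

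No single gene was called different between Yes and No. Of 11582 loci tested, 0 passed an adjusted p of 0.05 (limma, Benjamini-Hochberg, 0% called), and the lowest adjusted p was 0.366. An unadjusted p under 0.05 was found at 495 loci (4.27%), of which 163 (1.41%) had the higher mean in Yes and 332 (2.87%) the lower. A threshold of 0.05 alone would pass 579 loci on average if no locus differed. Where loci vary together, the count can lie far from that average. The median log2 difference over all loci was 0.00 on the log2(FPKM + 1) scale, on which every difference below is given as Yes minus No. FPKM, fragments scaled by transcript length and by library size, are levels relative to the rest of the library, with 1 added before the logarithm, so differences of low genes are understated. For the 95% confidence interval (CI) of the difference, the median half-width was 0.33, and for 95.7% of loci the interval lay within -1 to 1. Differences larger than 1 in either direction were estimated at 18 loci, none of them with a gene symbol.

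**Figure D1:**
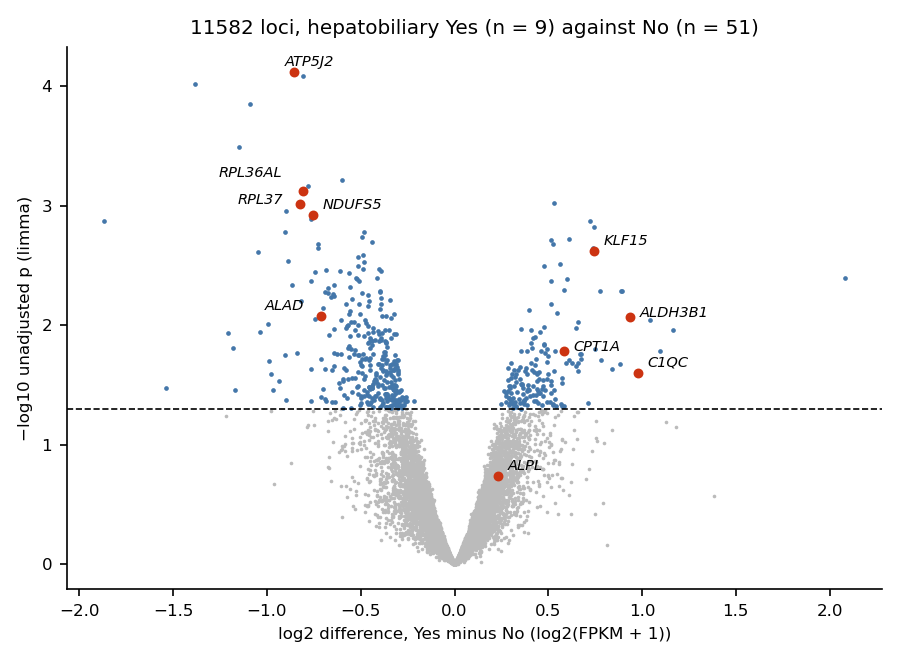
Log2 difference (Yes minus No, x axis) against -log10 of the unadjusted limma p (y axis) for 11582 loci, with loci under an unadjusted p of 0.05 in blue above the dashed line and 10 named genes in red. More loci lay above the line on the lower side (332) than on the higher side (163), and none passed after adjustment.

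Library-wide measures of the 2 groups overlapped. The first principal component of the BAR samples (25.7% of variance) averaged 0.02 ± 0.63 SD units in Yes and -0.00 ± 1.06 in No, and the second (8.42%) averaged -0.44 ± 0.97 and 0.08 ± 0.99. Relative depth, estimated from the smallest values of rarely detected loci, ranged from 0.645 to 1.70 over BAR libraries and rested on as few as 4 loci in a library. Of 8 such measures compared by permutation, adjusted p ranged from 0.537 to 0.979. Within Yes, a June 2013 female with the inflammation finding and a June 2017 female with the iron finding had the lowest shares of summed FPKM in ribosomal protein loci. Their shares were 13.6% and 14.7%, against 17.6% to 29.4% in the other 7 Yes samples and 13.3% to 32% in No. These 2 libraries held the most extreme Yes values of many genes described here, and they are set apart as the 2 ribosome-poor Yes libraries below. They were singled out after their values had been seen, so values without them describe only how far a difference rests on them.

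None of the blood transcripts of liver enzymes passed the test. Of 13 enzymes measured in serum to assess the liver, or close relatives of these, 3 could be assigned to a locus. ALPL, the tissue-nonspecific alkaline phosphatase, ranged from 79.6 to 229 FPKM in Yes (median 117) and from 45.6 to 239 in No (median 109). The Yes samples lay within the No range, and the 2 highest of them were the ribosome-poor libraries at 229 and 216. Means were 133 ± 57.9 FPKM in Yes and 110 ± 35.2 in No, a log2 difference of 0.23 (95% CI -0.11 to 0.58, limma adjusted p = 0.998). Without the ribosome-poor libraries the difference of ALPL was -0.01.

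The mitochondrial and cytosolic dehydrogenases were closer still. GLUD1, glutamate dehydrogenase, ranged from 61.3 to 97.1 FPKM in Yes (median 75.2) and from 27.5 to 118 in No (median 74.0), a difference of 0.09 (95% CI -0.15 to 0.34). LDHB, a subunit of lactate dehydrogenase, ranged from 196 to 338 FPKM in Yes (median 238) and from 120 to 425 in No (median 238), a difference of 0.06 (95% CI -0.22 to 0.33). The groups overlapped fully for both genes, and both intervals included 0 and were narrower than that of ALPL.

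Of 14 genes of heme breakdown and bilirubin handling, 2 could be assigned to a locus, and their means differed in opposite directions. HMOX1, the inducible heme oxygenase, ranged from 73.9 to 217 FPKM in Yes (median 112) and from 46.8 to 212 in No (median 111), a difference of 0.15 (95% CI -0.21 to 0.50). Its 2 highest Yes values, 217 and 208, were those of the ribosome-poor libraries, and without them the difference was -0.09. BLVRB, biliverdin reductase B, an abundant protein of red cells, ranged from 3681 to 13305 FPKM in Yes (median 7225) and from 2965 to 22867 in No (median 10208). BLVRB is also a member of the red cell list below, and its level is not read as a measure of bilirubin formation. Its difference was -0.35 (95% CI -0.88 to 0.17, limma adjusted p = 0.998), and 3 of 9 Yes samples lay above the No median. The difference of BLVRB was -0.62 with collection period as a term and -0.70 without June 2017 samples. It was -0.38 within June 2017 and -0.18 without the ribosome-poor libraries. Its lowest limma adjusted p over the alternatives was 0.728.

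**Figure D2:**
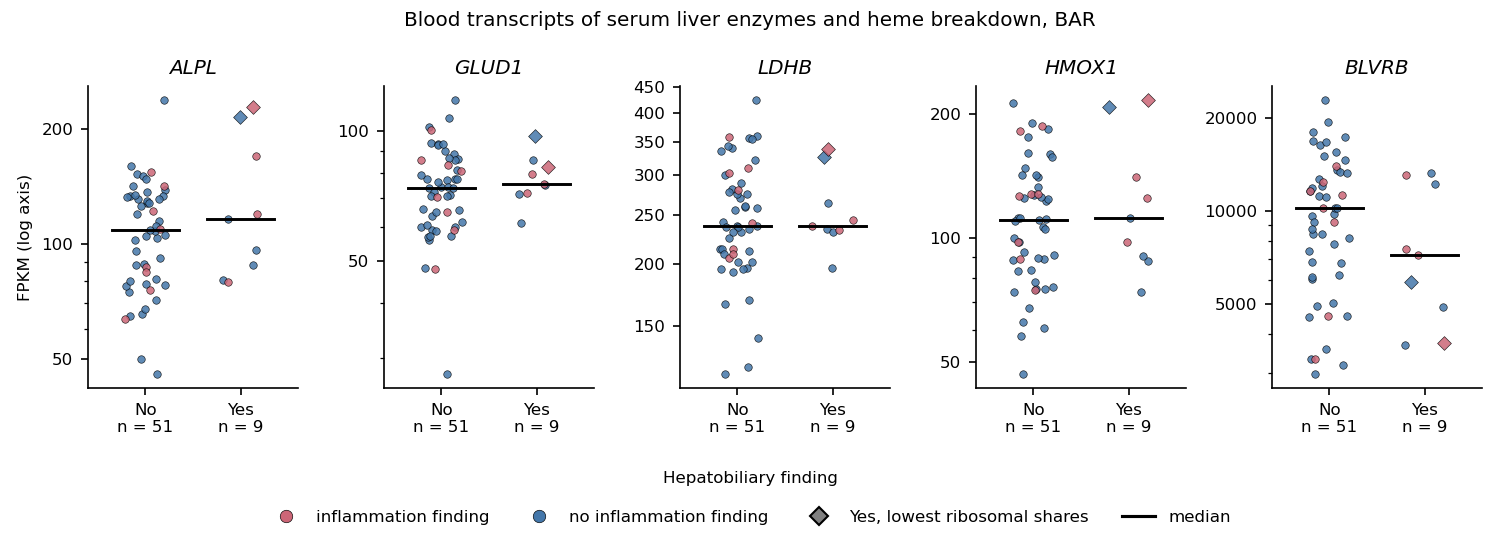
FPKM (log axis) of 3 serum liver enzyme genes and 2 heme breakdown genes in each BAR sample, by hepatobiliary finding, with medians as lines, samples with the inflammation finding in red and the 2 ribosome-poor Yes libraries as diamonds. Yes samples lay inside the No range except for the highest HMOX1 value, 217 against a No maximum of 212.

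Of the 10 genes with a symbol and the smallest p among those lower in Yes, 2 belong to the respiratory chain list and 5 to the ribosomal protein list. ATP5J2 encodes a membrane subunit of mitochondrial ATP synthase and had the smallest p of all loci. It lies on scaffold NW_017842840.1 of Tur_tru v1 from 689828 to 696705. Its level ranged from 28 to 140 FPKM in Yes (median 74.0) and from 38 to 240 in No (median 123). Of 9 Yes samples, 8 lay below the No median and 2, the ribosome-poor libraries, below the No range. Means were 71.1 ± 33.7 FPKM in Yes and 124 ± 44 in No, a difference of -0.85 (95% CI -1.26 to -0.45, limma adjusted p = 0.366). Over the alternatives tried the adjusted p of ATP5J2 ranged from 0.110 to 1, and without the ribosome-poor libraries the difference was -0.56. Among the 3 Yes samples with no inflammation, anemia or iron finding, ATP5J2 was at 45.7, 82.8 and 87.4 FPKM, all below the No median. These 3 samples were all collected in 2017, whereas the No median pools all periods, so collection period is not set apart in that comparison. Within June 2017 the difference of ATP5J2 was -0.45 (limma unadjusted p = 0.26). It was -0.93 without June 2017 samples and -0.78 with collection period as a term.

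NDUFS5, a subunit of Complex I, ranged from 22.9 to 84.4 FPKM in Yes (median 48.6) and from 27.1 to 195 in No (median 77.0), with 8 of 9 Yes samples below the No median. Its difference was -0.75 (95% CI -1.20 to -0.31, limma adjusted p = 0.980). ATP5O, the stalk subunit of ATP synthase that confers oligomycin sensitivity, had a median of 59.4 FPKM in Yes and 82.4 in No and a difference of -0.42 (95% CI -0.78 to -0.05). Of 32 nuclear respiratory chain loci tested, 4 had an unadjusted p under 0.05 and a lower mean in Yes and 0 a higher one, against 2.87% and 1.41% of all loci. The median difference of these 32 was -0.15, against 0.00 over all loci, and 26 were negative. Without the September 2017 female the count was 2 and the median -0.09. The sign was not shared by all periods. The median was 0.10 within June 2017, where 4 Yes samples met 8 No samples and the median of all loci was 0.08, and it was -0.25 in the other periods, where that of all loci was -0.05.

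Proteins of the large ribosomal subunit were the second group. RPL37 ranged from 556 to 2210 FPKM in Yes (median 1125) and from 741 to 6619 in No (median 2199), and 8 of 9 Yes samples lay below the No median. Means were 1385 ± 684 and 2392 ± 1104 FPKM, a difference of -0.82 (95% CI -1.30 to -0.35, limma adjusted p = 0.980). RPL34 ranged from 505 to 1571 FPKM in Yes (median 1246) and from 453 to 3629 in No (median 1651), with all 9 Yes samples below the No median and a difference of -0.64 (95% CI -1.08 to -0.20). RPL36AL (-0.81), RPL36A (-0.87) and RPL23 (-0.73) completed the ribosomal genes among the 10 with the smallest p. RPL36A and RPL36AL are near-identical copies, RPL23 is the symbol of 2 loci, and ribosomal protein genes have many processed copies, so the split of their reads among loci is uncertain.

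Most ribosomal protein loci differed far less than these. Of 90 loci tested, 13 had an unadjusted p under 0.05 and a lower mean in Yes and 0 a higher one, against 2.87% and 1.41% of all loci, and the median difference was -0.11. The differences ranged from -0.87 to 0.17, and 24 were positive. The share of summed FPKM in ribosomal protein loci was 21.8% ± 5.47 in Yes and 23.2% ± 4.49 in No, and the permutation test did not pass the threshold (adjusted p = 0.817). Without the ribosome-poor libraries, which were chosen on this very share, 2 loci had an unadjusted p under 0.05 and the median was -0.02. With 1 Yes sample left out at a time, the count was 8 without the September 2017 female or the June 2017 female with the iron finding, 20 without the June 2017 female free of the other findings, and 9 to 16 otherwise. The median ranged from -0.17, without the June 2017 female free of the other findings, to -0.04, without the September 2017 female, and was -0.06 without the June 2013 female. Within June 2017 the count was 1 and the median -0.03, and in the other periods the count was 8 and the median -0.22.

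**Figure D3:**
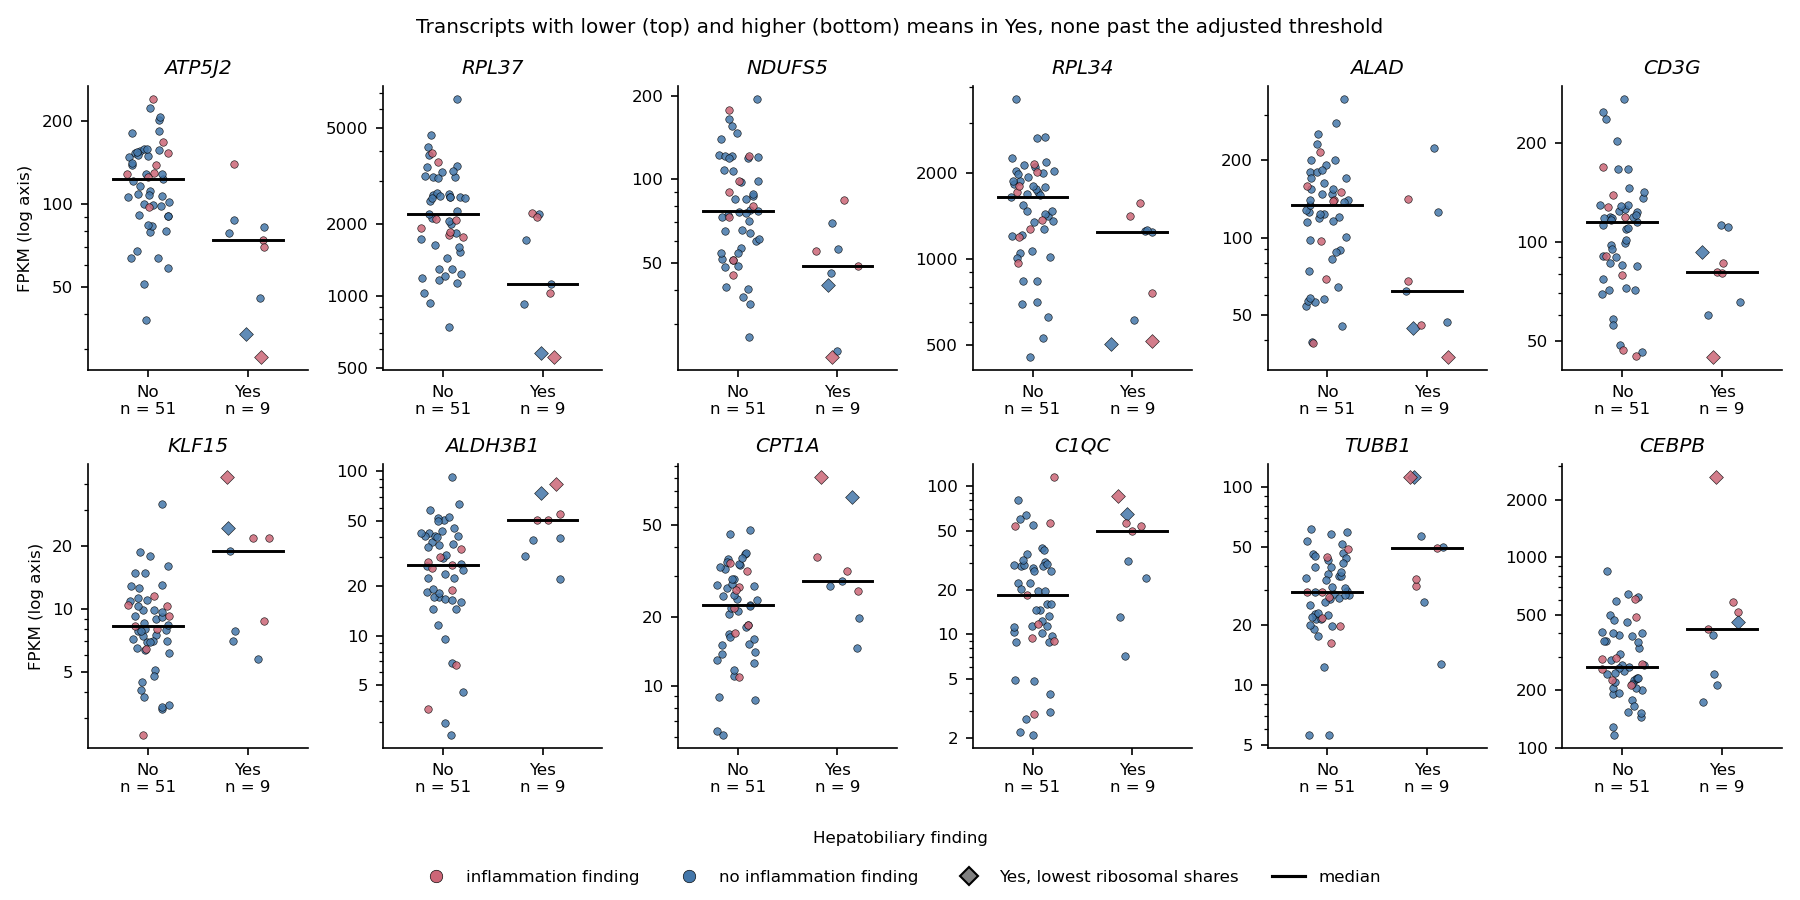
FPKM (log axis) of 6 genes with lower means in Yes (top) and 6 with higher means (bottom) in each BAR sample, with medians as lines, samples with the inflammation finding in red and the 2 ribosome-poor Yes libraries as diamonds. For ATP5J2, RPL37, CPT1A and TUBB1 these 2 libraries lay outside the No range, and for every gene shown the groups overlapped.

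The other genes with the smallest p on the lower side have no common role. PDCD10, a scaffold protein named for programmed cell death, ranged from 16.6 to 62.3 FPKM in Yes (median 31.5) and from 30.9 to 91 in No (median 47.2), and 4 Yes samples lay below the No range. Its difference was -0.51 (95% CI -0.84 to -0.18). COMMD8, of a family that sorts endosomal cargo, had a median of 8.03 FPKM in Yes and 11.0 in No, all 9 Yes samples lay below the No median, and the difference was -0.48. CYB5A, cytochrome b5, which passes electrons to fatty acid desaturases and cytochrome P450 enzymes, had a median of 11.4 FPKM in Yes and 16.3 in No and a difference of -0.56 (95% CI -0.94 to -0.18).

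On the higher side, the smallest p among genes with a symbol was that of KLF15. KLF15, a transcription factor that in mouse liver controls amino acid breakdown and gluconeogenesis, ranged from 5.74 to 43 FPKM in Yes (median 19.0) and from 2.49 to 32 in No (median 8.30). Means were 17.8 ± 12.1 and 9.23 ± 4.89 FPKM, a difference of 0.74 (95% CI 0.27 to 1.21, limma adjusted p = 0.980). Of 9 Yes samples, 5 lay above 18 FPKM and 4 between 5.74 and 8.74, so the Yes samples fell on both sides of the No median. The high values came from 3 of the 4 Yes samples with the inflammation finding and from 2 without it. The 8 No samples with the inflammation finding ranged from 2.49 to 11.6 FPKM. Without all samples that had the inflammation finding the difference of KLF15 was 0.34, and without the ribosome-poor libraries it was 0.43.

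CPT1A, which controls the entry of fatty acids into mitochondria, ranged from 14.5 to 80.9 FPKM in Yes (median 28.6) and from 6.11 to 47.5 in No (median 22.4), a difference of 0.58 (95% CI 0.11 to 1.05). Its 2 highest values, 80.9 and 66.3, were the ribosome-poor libraries, both above the No range, and without them the difference was 0.25. ALDH3B1, an aldehyde dehydrogenase that oxidizes lipid aldehydes, ranged from 22.1 to 83.8 FPKM in Yes (median 50.6) and from 2.49 to 92.1 in No (median 26.9). For ALDH3B1, 8 of 9 Yes samples lay above the No median and the difference was 0.94 (95% CI 0.25 to 1.625, limma adjusted p = 0.998). It was 0.72 without the ribosome-poor libraries and 0.59 without the samples that had the inflammation finding.

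CEBPB, a transcription factor of acute-phase and myeloid gene programs, ranged from 175 to 2642 FPKM in Yes (median 418) and from 117 to 852 in No (median 266). Its difference was 0.61 (95% CI 0.10 to 1.11), and without the samples that had the inflammation finding it was -0.01. The value of 2642 belonged to the June 2013 female, and the next Yes value was 585. RASGRP4, a Ras activator of mast cells and other myeloid cells named at 2 loci, had a median of 784 FPKM in Yes and 586 in No and a difference of 0.41. The remaining genes of the 10 were RHOF (0.36), CMIP (0.43), CSNK1E (0.46), a kinase of the circadian clock, PDLIM7 (0.54) and CCNJL (0.44). For each of these 5 genes the 2 highest Yes values belonged to the ribosome-poor libraries.

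Pathways of lipid, sugar and nitrogen metabolism that the liver shares with blood cells showed small median differences. Over all 11582 loci, 5803 were positive, and 1.41% were higher in Yes with an unadjusted p under 0.05. Among 29 loci of fatty acid and triglyceride metabolism the median was 0.16, 24 were positive, and 1 (CPT1A) had an unadjusted p under 0.05. The median was 0.08 and the count 0 without either ribosome-poor library, and the median was -0.01 without both. The count was 2 without the September 2017 female and 3 without the June 2014 female. ACSL1, which activates long-chain fatty acids, had a median of 13.6 FPKM in Yes and 11.3 in No, and LPIN2, a phosphatidate phosphatase, 84.0 and 75.8. Among 24 loci of glycogen and glycolysis the median was 0.17, 19 were positive and 1 had an unadjusted p under 0.05, a count that was 6 without the June 2014 female and 0 to 3 with any other single Yes sample left out, and the median was 0.08 without the June 2013 female. That locus was PKLR, the pyruvate kinase of liver and red cells, which was at 0 to 9.97 FPKM in Yes (median 0.39) and at 0 to 4.53 in No (median 0.56), so its higher mean rested on a few samples. GYS1, glycogen synthase, and PPP1R3B, which targets a phosphatase to glycogen, had differences of 0.31 and 0.31. Without the samples that had the inflammation finding, the medians of these lists were 0.00 and 0.04.

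Sterol synthesis and ABC transport (19 loci) had a median of 0.00. Against 2.87% of all loci that were lower in Yes with an unadjusted p under 0.05, this list held 1 such locus. This was MSMO1, a demethylase of sterol synthesis, at a median of 14.7 FPKM in Yes and 21.3 in No and a difference of -0.37 (95% CI -0.72 to -0.02), which was 0.20 within June 2017. ABCG1, which exports sterols from cells, had a difference of 0.25 with an interval that included 0. Glutathione and detoxification (31 loci) had a median of 0.04 and 1 locus on either side, ALDH3B1 and CYB5A, against 1.41% and 2.87% of all loci. HAGH, a glyoxalase, had a difference of -0.46. Amino acid, urea and polyamine metabolism (17 loci) had a median of 0.06 and 0 loci under an unadjusted p of 0.05. GLUL, glutamine synthetase, had a difference of 0.29. For the unfolded protein response (21 loci) the median was 0.01, with 1 locus under an unadjusted p of 0.05, against 2.87% of all loci lower in Yes. That locus was DNAJB9, an endoplasmic reticulum chaperone, with medians of 9.59 FPKM in Yes and 14.1 in No. DERL2 (0.32) and OS9 (0.23), of endoplasmic reticulum protein disposal, had intervals that included 0.

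Genes of inflammatory signaling had positive differences that were smaller in samples without the inflammation finding. Of 27 loci of interleukin 1, interleukin 6 and TNF signaling, 26 had a higher mean in Yes, against 5803 of all 11582 loci, and 4 had an unadjusted p under 0.05, against 1.41% of all loci with a higher mean in Yes. With collection period as a term that count was 1. IL18R1, a subunit of the interleukin 18 receptor, had a median of 35 FPKM in Yes and 23.6 in No, and IRAK4, a kinase of the interleukin 1 receptor, 48.3 and 39.7. The median difference of the list was 0.19 and became 0.07 without samples that had the inflammation finding, with 0 loci under an unadjusted p of 0.05. It was 0.04 without the ribosome-poor libraries, and with single samples left out the count was 0 without the June 2013 female, 1 without the July 2018 male or the June 2017 female with the iron finding, 2 without the June 2017 female with the inflammation finding, and 7 without the September 2017 female. The median was 0.12 and 0.11 without the June 2013 female and the June 2017 female with the iron finding. Members of a list vary together, so a shared sign is not a count of independent results.

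Markers of white cells were described in the same way, and in bulk blood fewer cells of a type and less RNA per cell cannot be told apart. All 19 neutrophil marker loci had a higher mean in Yes, against 5803 of all 11582 loci, with a median difference of 0.21. Here too the shared sign is not a count of independent results. Under an unadjusted p of 0.05 there was 1 locus, LTF, against 1.41% of all loci higher in Yes under that p. LTF, the iron-binding lactoferrin of neutrophil granules, ranged from 59.8 to 213 FPKM in Yes (median 93) and from 29.9 to 232 in No (median 67.4). CSF3R, the receptor for the neutrophil growth factor, had a median of 786 FPKM in Yes and 740 in No, and LRG1, a granule glycoprotein, 412 and 306. The mean log2 level of the list was 8.20 and 8.02 in the ribosome-poor libraries and 6.72 to 7.44 in the other 7 Yes samples, against 5.94 to 7.87 in No. The median difference was -0.01 without these 2 libraries, 8 of 19 loci then being positive, and 0.07 without samples that had the inflammation finding. The count under an unadjusted p of 0.05 was 0 without either ribosome-poor library (medians of 0.09 and 0.11) or the July 2018 male, 4 without the June 2014 female, 3 without the June 2017 male, and 2 without the September 2017 female or the June 2017 female with the inflammation finding.

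Monocyte and macrophage markers (16 loci) had a median of 0.12. It was 0.02 without the June 2013 female, 0.04 without the June 2017 female with the iron finding, 0.19 without the September 2017 female, 0.25 without the June 2014 female and -0.09 without both ribosome-poor libraries. C1QC, a chain of the complement protein C1q that macrophages make, ranged from 7.15 to 85.4 FPKM in Yes (median 49.9) and from 2.08 to 115 in No (median 18.4). Its difference was 0.98 (95% CI 0.13 to 1.83, limma adjusted p = 0.998), and 7 of 9 Yes samples lay above the No median. C1QA, another chain, had a difference of 0.66 (95% CI -0.10 to 1.41). All 4 Yes samples with the inflammation finding were between 49.9 and 85.4 FPKM for C1QC, but the 8 No samples with it ranged from 2.87 to 115. Without all samples that had the inflammation finding the difference of C1QC was 0.38. GPR34, a lysophosphatidylserine receptor, was lower, at medians of 15 and 19.3 FPKM. Complement and coagulation genes (14 loci) had a median of 0.04 and 3 loci under an unadjusted p of 0.05, all with higher means in Yes, against 1.41% of all loci, namely C1QC, F13A1 (0.57), the coagulation factor XIII A chain, and C5AR2 (0.44), a receptor for C5a. The count was 0 without either ribosome-poor library, 1 without the July 2018 male or with collection period as a term, and 5 without the June 2017 female free of the other findings.

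Lymphocyte markers had small differences in both directions. Of 8 T cell loci 7 were negative, against 5779 of all 11582 loci, with a median of -0.24 that turned to 0.10 without samples that had the inflammation finding. It was -0.15 without the June 2013 female and -0.13 without the June 2017 female with the inflammation finding. CD3G, a chain of the T cell receptor complex, ranged from 44.6 to 112 FPKM in Yes (median 80.7) and from 45 to 272 in No (median 115), all 9 Yes samples lay below the No median, and the difference was -0.42 (95% CI -0.82 to -0.02). Within June 2017 it was 0.16. LEF1 (-0.36) and ICOS (-0.24) had intervals that included 0. B cell markers (10 loci) had a median of -0.11 that turned to 0.38 without samples that had the inflammation finding. It turned to 0.15 without the July 2018 male alone, and with any other single Yes sample left out it ranged from -0.25, without the June 2017 female free of the other findings, to -0.06. POU2AF1, BLK and CLEC17A had differences of -0.23, -0.21 and -0.15. Cytotoxic and natural killer markers (8 loci) had a median of 0.22 and 0 loci under an unadjusted p of 0.05, with TBX21 at 0.36, GZMA at 0.34 and CD226 at 0.17. The median of the cytotoxic list was 0.07 without the June 2017 female with the iron finding, 0.08 without the June 2013 female or the July 2018 male, and -0.09 without both ribosome-poor libraries. Eosinophil and basophil markers (8 loci) had a median of -0.05 and 0 such loci, with FCER1A at -0.33, MS4A2 at -0.23 and PRG3 at -0.37. That median was 0.37 within June 2017, with all 8 loci positive, and -0.13 in the other periods, with 0 positive. With collection period as a term it was 0.05.

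Platelet markers had the largest positive median of the 23 lists with a locus tested. Of 14 loci 4 had an unadjusted p under 0.05, all with higher means in Yes, against 1.41% of all loci, and the median difference was 0.30. The count was 0 with collection period as a term, within June 2017 and in the other periods, where the medians were 0.26, 0.25 and 0.21. TUBB1, the tubulin of platelets, ranged from 12.8 to 112 FPKM in Yes (median 49) and from 5.58 to 61.2 in No (median 29.4), a difference of 0.60 (95% CI 0.09 to 1.10). GP5, a platelet surface glycoprotein, ranged from 4.30 to 59.4 FPKM in Yes (median 20.3) and from 2.22 to 34.5 in No (median 12.7), a difference of 0.66 (95% CI 0.10 to 1.21). For both genes 7 of 9 Yes samples lay above the No median, and the ribosome-poor libraries were the 2 highest and lay above the No range. Leaving out either one brought the count of loci under an unadjusted p of 0.05 from 4 to 0, with list medians of 0.21 and 0.17, and leaving out both brought the median to 0.03. Without the June 2014 female, whose mean log2 level of the platelet list was the lowest of the 9 Yes samples, the count was 7 and the median 0.46.

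Markers of red cells and heme synthesis had a negative median. Of 38 loci 28 were negative, against 5779 of all 11582 loci, and the median was -0.22. Against 2.87% of all loci that were lower in Yes with an unadjusted p under 0.05, this list held 1 such locus. This was ALAD, the second enzyme of heme synthesis, which ranged from 34.3 to 223 FPKM in Yes (median 62.2) and from 38.9 to 346 in No (median 134), a difference of -0.71 (95% CI -1.24 to -0.19, limma adjusted p = 0.998). TRIM10 (-0.61), needed for red cell maturation in mouse, and TMCC2 (-0.26) had intervals that included 0. With collection period as a term the list median was -0.41, and 10 loci were lower in Yes under an unadjusted p of 0.05, against 308 of all 11582. The median was -0.24 without samples that had the anemia finding and -0.01 without the ribosome-poor libraries. With single Yes samples left out it ranged from -0.34, with 4 loci under that p, without the June 2017 female with the inflammation finding to -0.06, with 1 such locus, without the June 2014 female. Iron handling (13 loci) had a median of -0.00 and 1 locus on either side under an unadjusted p of 0.05, against 1.41% and 2.87% of all loci. These were LTF and BOLA3 (-0.67), an iron-sulfur cluster assembly factor. ISCA1, another such factor, had a difference of -0.47 (95% CI -1.05 to 0.10).

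Interferon-stimulated genes (29 loci) and the proteasome (15 loci) showed medians of 0.06 and 0.01. ZNFX1 (0.25), UBE2L6 (0.34) and RSAD2 (-0.48), all induced by interferon, had intervals that included 0. RSAD2 ranged from 0.44 to 186 FPKM in No and from 1.06 to 27.1 in Yes, so the highest samples were in No. IDO1, a tryptophan-degrading enzyme that interferon induces, had a difference of 0.51 with an interval that included 0. PSMB1, a subunit of the proteasome core, was the 1 proteasome locus under an unadjusted p of 0.05, against 2.87% of all loci lower in Yes. Its medians were 79 FPKM in Yes and 109 in No, a difference of -0.38 (95% CI -0.71 to -0.06). PSMC6 and PSMA1 had differences of -0.30 and -0.20.

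**Figure D4:**
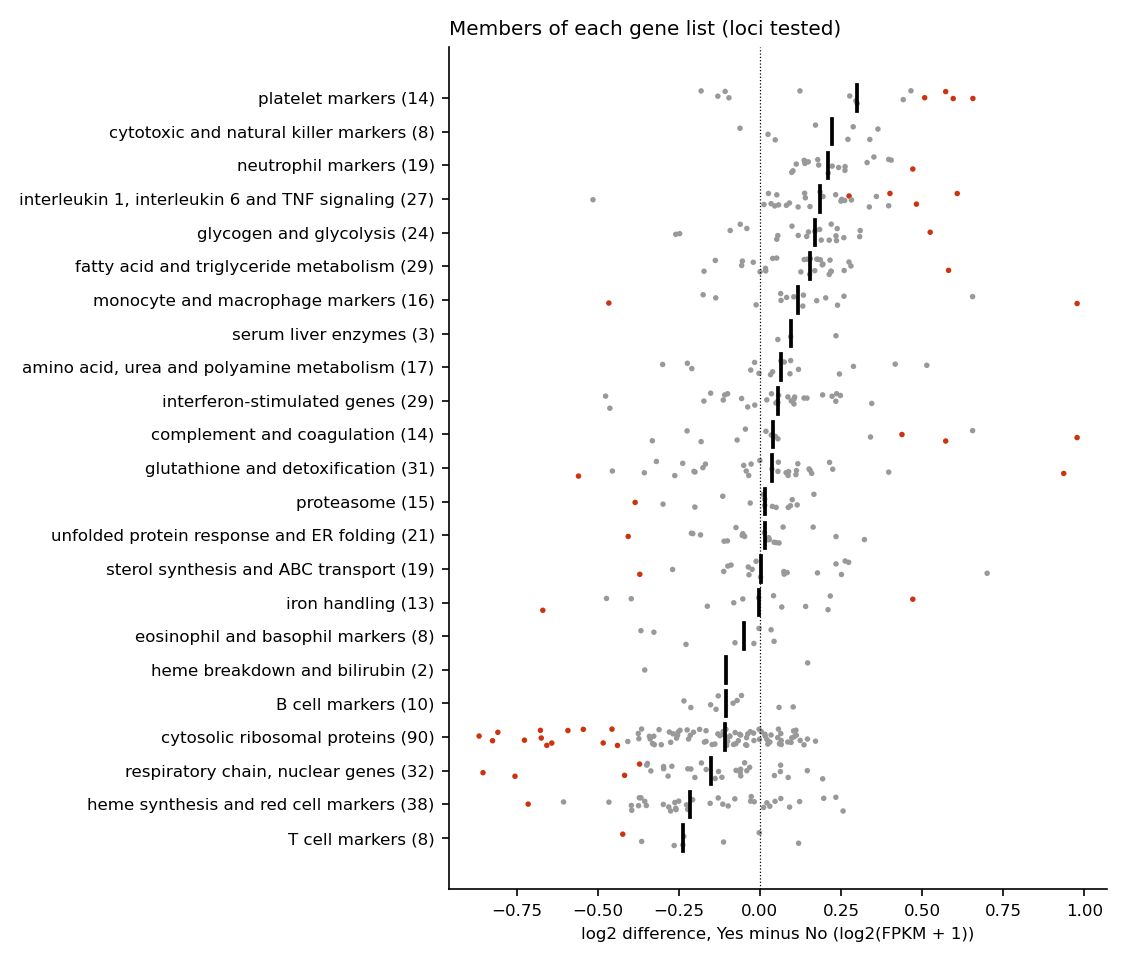
Log2 difference (Yes minus No) of every locus tested in 23 gene lists, with the number of loci in parentheses, loci under an unadjusted p of 0.05 in red and list medians as black bars. Medians ranged from -0.24 for T cell markers to 0.30 for platelet markers, and the red points of ribosomal and respiratory chain genes lay on the lower side.

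List medians depended on which samples were included, and not all of them moved toward 0. The groups share the inflammation finding unequally, and its part in these differences was not tested beyond leaving such samples out, which left 5 Yes and 43 No. Medians above 0.10 in all samples became smaller in those samples for all 7 such lists, and for monocyte and for cytotoxic markers they turned negative. Medians below -0.10 became more negative for ribosomal (-0.25), respiratory chain (-0.19) and red cell genes (-0.33), and positive for T and B cell markers. The heme breakdown list holds only 2 loci, and its median went from -0.10 to -0.19. Of these, BLVRB went from -0.35 to -0.38 and HMOX1 from 0.15 to 0.01. Without the 2 ribosome-poor libraries the respiratory chain median was -0.20, with 5 loci lower in Yes under an unadjusted p of 0.05. In that setting the median of all loci was -0.05, and 227 of 11571 loci were lower under that p. With collection period as a term the respiratory chain median was -0.10, with 4 such loci.

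**Figure D5:**
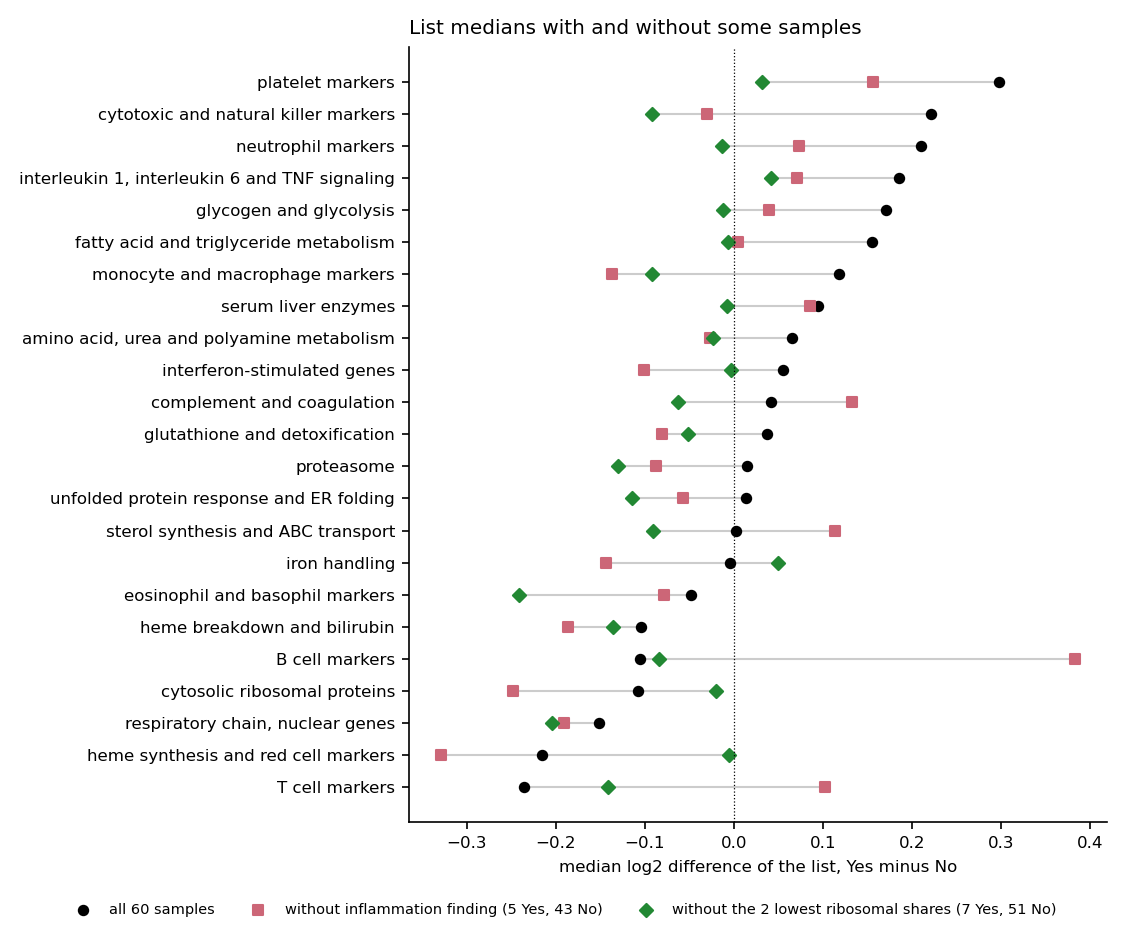
Median log2 difference of 23 gene lists in all 60 BAR samples (black), without samples that had the inflammation finding (red) and without the 2 ribosome-poor Yes libraries (green). The platelet median went from 0.30 to 0.16 and 0.03, and the respiratory chain median from -0.15 to -0.19 and -0.20.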

How the data were processed

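The authors drew whole blood into PAXgene tubes, prepared strand-specific libraries and sequenced them on a NovaSeq. FPKM per locus were deposited for Tur_tru v1, which the authors computed with Trimmomatic 0.33, TopHat2 2.1.1 with Bowtie2 and Cufflinks 2.2.1, with hemoglobin transcripts HBB, HBM and HBZ masked. FPKM hold no read counts, so depth is known only in relative terms. Loci are given by position. Symbols came from locus and symbol pairs in supplementary tables of the study, which name 3144 of 24094 loci, and 3142 of the 11582 loci tested. The hepatobiliary, inflammation, anemia and iron findings came from the supplementary table of samples (76 samples matched by field ID and date), not from the sample labels. Members and lists were chosen with earlier results of these data known. Loci with a mean FPKM of at least 1 and above 0 in at least 30 of the 60 BAR samples were tested on log2(FPKM + 1) with no covariate, using limma 3.58.1 with an intensity trend in R 4.3.3, and adjusted p-values (Benjamini-Hochberg) up to 0.05 were called. The test was checked on simulated data with independent loci and large added differences. That check does not bear on the power for the small differences seen here. Library measures were compared by two-sided permutation tests with 100000 resamples. Named genes are, for each direction, the 10 with a descriptive symbol and the smallest unadjusted p, since none passed, up to 3 genes with the smallest p of each list, and every gene of the liver enzyme and bilirubin lists. Values of 2 of these genes are not reported here. Alternatives were another pseudocount (0.1), no filter, 2 other scalings, period or sex as a term, the animal as a block, array weights, and subsets of samples. Python 3.11.15, numpy 2.4.6, pandas 2.3.3 and matplotlib 3.10.9 were used. Samples were treated as replicates although 5 BAR animals contributed 2 each.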

Additional observations from a re-analysis of the deposited data

Results flagged for a closer look

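Among the 9 Yes samples, 1 sample stood apart for 6 of 84 named genes and library measures, by a gap to its neighbor that was large relative to the group's range on the log2 scale (Dixon's criterion at the 95% level). About 1 in 20 such groups is flagged by chance. The June 2013 female had a CEBPB level of 2642 FPKM (gap 0.556). The June 2013 male had an IDO1 level of 22 FPKM against 4.46 in the next sample (gap 0.586). The July 2018 male had the lowest levels of the B cell genes POU2AF1 (7.07 FPKM, gap 0.601) and CLEC17A (2.69 FPKM, gap 0.674). The June 2017 male had the lowest MS4A2 level, 81.0 FPKM (gap 0.514), and the September 2017 female the lowest GZMA level, 6.16 FPKM (gap 0.5).

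One Sarasota Bay (SAR) sample, of a female that also had the anemia finding, carried the hepatobiliary finding and entered no comparison. Of 41 named genes with a higher mean in the BAR Yes samples, 5 were higher in this sample than in all 14 SAR samples without the finding. These were IDO1 (89.4 FPKM against a maximum of 1.63), C1QC (260 against 35.7), C1QA (186 against 50), UBE2L6 (321 against 61.6) and ZNFX1 (43 against 39.8). Of 35 named genes with a lower mean in the BAR Yes samples, 4 were lower in this sample than in all 14 and 7 were higher. The higher ones included PRG3 (345 FPKM against 37.6), RPL36A (325 against 236) and FCER1A (1242 against 1033). ALDH3B1 was lower in this sample, at 1.86 FPKM, than in those 14 samples, at 4.45 to 41.8, and ATP5J2 was at 261 FPKM, within their range of 22.1 to 279. With 1 sample no difference was tested. How often this sample lay outside the range of those 14 over all loci was not counted. The counts above are therefore not read as agreement with the BAR groups.

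An interaction of the finding with June 2017 and one with sex were fitted over all loci. Neither was called at any locus (limma, 0 of 11582 each), with 259 and 432 loci at an unadjusted p under 0.05. The lowest limma adjusted p was 0.9997 for June 2017 and 0.0603 for sex. The fit with sex rested on 3 Yes samples of males and 6 of females.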

How the results depend on the processing

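The count of loci past the adjusted threshold was 0 in all 25 alternatives, with a lowest adjusted p of 0.110, so no call was gained or lost. Unadjusted counts were less stable. Against 163 higher and 332 lower, they were 289 and 86 within June 2017, 83 and 294 in the other periods, 204 and 183 without samples that had the inflammation finding, 351 and 502 after median-ratio scaling, 337 and 466 after quantile normalization, and 685 and 369 of 21453 loci without the filter. With the animal as replicate block they were 174 and 402. Without the 2 ribosome-poor Yes libraries, an alternative chosen after seeing the data, they were 47 and 227. With 1 Yes sample left out at a time the total ranged from 284, without the June 2013 female, to 693.

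The difference on the first principal component, 0.02 SD, became -0.47 after median-ratio scaling, where the first component (11.4% of variance) is another axis. Among named genes, differences changed sign as follows. Within June 2017 they were 0.20 for MSMO1, -0.065 for LPIN2, 0.39 for FCER1A, 0.042 for MS4A2, 0.27 for PRG3, 0.16 for CD3G, -0.18 for CD226, 0.17 for POU2AF1 and 0.17 for PSMA1. Without samples that had the inflammation finding they were -0.012 for CEBPB, -0.069 for GLUL, 0.32 for LEF1 and 0.35 for CLEC17A. Without samples that had the anemia finding they were 0.023 for BLK and 0.23 for CLEC17A. Without the ribosome-poor libraries they were -0.0081 for ALPL, -0.057 for LDHB and -0.086 for HMOX1. With 1 Yes sample left out CLEC17A ranged from -0.27 to 0.19. The cause was not tested.

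With 9 Yes samples spread over 5 periods, period, inflammation and the finding were only partly separable. The finding is a summary call, and serum values were not analysed here. Only 27.1% of the loci tested had a symbol, and low values rest on few fragments.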

Other observations

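The male sampled in June 2013 with the finding, when it also had the inflammation and anemia findings, and in June 2014 without any of them gave 1 pair within an animal. ATP5J2 was at 140 FPKM in 2013 and 158 in 2014, RPL37 at 2210 and 3139, and NDUFS5 at 84.4 and 121, so each was lower when the finding was present. KLF15 was at 21.9 and 9.17 FPKM, C1QC at 49.9 and 4.90, IDO1 at 22 and 2.47, and UBE2L6 at 348 and 125, so each was higher. Of 35 named genes with a lower mean in Yes, 28 were lower in 2013 and 7 higher, among them RPL36A (88.5 and 49.4 FPKM) and CYB5A (16.2 and 11.0). Of 41 with a higher mean, 30 were higher in 2013 and 11 lower. Both samples are in the groups from which these directions were taken, so the counts are not independent of them. How many of all loci were lower or higher in 2013 was not counted. The counts are therefore not read as agreement within the animal. GP5 and TUBB1 of platelets were at 12.1 and 16.9 FPKM and at 31.8 and 34.7. This pair has no replicate, and the year differs too.

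Some loci without a symbol had smaller p than most named genes. On scaffold NW_017842243.1 of Tur_tru v1 the locus from 3290836 to 3298374 had a median of 94.8 FPKM in Yes and 165 in No (difference -0.81, limma adjusted p = 0.366). On scaffold NW_017842585.1 the locus from 16114152 to 16137997 had medians of 6.88 and 14.6 FPKM (difference -1.38, limma adjusted p = 0.366), and it was listed at 0 in 2 Yes samples and in none of the No samples. On the higher side, the locus on NW_017843712.1 from 41360759 to 41372033 had medians of 3.29 and 1.67 FPKM and 3 Yes samples above the No range (difference 0.72, limma adjusted p = 0.980).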
